A study of Homo sapiens with 18 samples.

Results

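Every time a cell divides, its genome is copied by 3 DNA polymerases that share the work. The 10 genes described here encode that machinery: POLA1 and POLA2 (the catalytic and the B subunit of DNA polymerase alpha), PRIM1 and PRIM2 (the small, catalytic and the large subunit of primase), POLD1, POLD2 and POLD3 (DNA polymerase delta), POLE and POLE2 (DNA polymerase epsilon) and PCNA (the sliding clamp). They were taken by name from the 23399 genes of the expression table, and all 10 passed the filter on low values that left 14993 genes for testing.

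DNA synthesis cannot start on a bare strand. Polymerase alpha and primase form 1 complex that lays down a short RNA-DNA primer, once on the leading strand and again for every Okazaki fragment of the lagging strand. Polymerase epsilon then extends the leading strand and polymerase delta the lagging strand, with PCNA, a ring around the DNA, holding the polymerase in place. Genes of this machinery are known for higher transcription around the start of S phase, under E2F factors, and many have been described as bound by Myc.

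The 18 RNA-seq libraries come from U2OS-MycER cells, a human osteosarcoma line that carries a retroviral fusion of Myc with the estrogen receptor (MycER), which is active when the cells receive 4-hydroxytamoxifen (OHT). All groups carried MycER, so an effect of OHT itself and one of MycER activity cannot be told apart here. Cells were transfected with siRNA against RAD21, a subunit of the cohesin ring (siRAD21), or with control siRNA against Renilla luciferase (siCtrl), and at the same time received 400 nM OHT or ethanol, its solvent. RNA was taken 24 or 48 h later, which gives 8 groups: siCtrl, siCtrl OHT, siRAD21 and siRAD21 OHT at each time, with 3 libraries of siCtrl and of siCtrl OHT at 48 h and 2 of each other group.

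Recovered depth ran from 9647501 to 12678599 reads per library. Reads per library on a member gene ran from 268 (PRIM1) to 2338 (POLE). Levels are eRPKM, the reads on a gene's exons divided by the length of its transcript and by the mapped reads of the library, so they can be set side by side between genes. RAD21 itself was at 89.0 to 96.9 eRPKM in the siCtrl libraries at 48 h and at 11.2 to 11.3 in the siRAD21 libraries (at 24 h, 69.3 to 72.2 and 18.1 to 18.6), and with OHT at 48 h it was at 89.1 to 96.3 in siCtrl and at 11.1 in both siRAD21 libraries. The 2 siRAD21 OHT libraries at 48 h differed by no more than the sampling noise of their reads (chi-square per gene 0.979, against 1.04 to 4.24 for other pairs of libraries). Their levels are therefore given as both values, with no SD. The siRAD21 pair at 24 h was the next closest, at 1.04, and was kept as 2 libraries. The limma fit holds them as 2 libraries, and every standard error, interval and adjusted p of a comparison with this group rests on that. With the pair averaged into 1 sample the standard errors of the 10 genes in these comparisons were 1.14 to 1.33 times as large. No call below changed, but fewer genes passed by the adjusted p alone, as given beside each count. How many of all genes tested passed with the pair averaged was not counted, so these drops have no share of all genes beside them. Of the markers of mesenchymal and bone cells, VIM lay at 105 to 129 eRPKM and SPARC at 60.6 to 86.4, while COL1A2 was near 0 (at most 0.109). Markers of blood, endothelial and liver cells (PTPRC, PECAM1 and ALB) reached at most 0.767, and the epithelial EPCAM lay at 2.56 to 12.9.

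The promoters of 9 of the members are in the RefSeq table used here (GRCh38.p14). POLD3 is named only. POLD1, PRIM2 and PCNA have an alternative start in it as well, so there are 12 windows of 300 bases, from 250 bases before a start site to 50 bases after it. Windows were searched on both strands for the E-box CACGTG, which Myc with Max is known to bind, and for 4 spellings of an E2F element, TTTCCCGC, TTTGGCGC, TTTCGCGC and TTTGCCGC. None of the 12 windows holds the E-box, which 7.26% of all 35116 windows of the table hold. An E2F element stands in the first window of 5 of the 9 members, POLA1, POLA2, POLE, POLE2 and PCNA, and in 3.31% of all windows. These are matches of letters and not binding sites. They are shown for the members with the largest and the smallest differences below and for 1 subunit each of polymerase alpha and epsilon. Each is written from 5' to 3' on the strand of its gene, with an E2F element in capitals (on the opposite strand in POLA1, POLE2 and PCNA), at chrX:24693668-24693967 (plus strand) for POLA1, chr12:56752274-56752573 (minus) for PRIM1, chr14:49688165-49688464 (minus) for POLE2 and chr20:5126573-5126872 (minus) for PCNA.
POLA1: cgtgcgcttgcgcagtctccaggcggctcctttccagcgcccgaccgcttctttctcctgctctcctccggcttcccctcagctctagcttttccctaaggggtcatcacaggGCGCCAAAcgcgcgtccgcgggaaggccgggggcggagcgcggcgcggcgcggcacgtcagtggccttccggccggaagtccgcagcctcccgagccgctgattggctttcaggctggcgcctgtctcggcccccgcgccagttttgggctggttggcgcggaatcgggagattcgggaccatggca
PRIM1: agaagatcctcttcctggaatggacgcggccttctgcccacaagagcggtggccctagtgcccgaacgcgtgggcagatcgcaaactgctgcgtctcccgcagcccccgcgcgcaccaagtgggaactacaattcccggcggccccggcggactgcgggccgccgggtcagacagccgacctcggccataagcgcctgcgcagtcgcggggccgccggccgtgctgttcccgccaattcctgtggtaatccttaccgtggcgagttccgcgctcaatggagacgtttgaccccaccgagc
POLE2: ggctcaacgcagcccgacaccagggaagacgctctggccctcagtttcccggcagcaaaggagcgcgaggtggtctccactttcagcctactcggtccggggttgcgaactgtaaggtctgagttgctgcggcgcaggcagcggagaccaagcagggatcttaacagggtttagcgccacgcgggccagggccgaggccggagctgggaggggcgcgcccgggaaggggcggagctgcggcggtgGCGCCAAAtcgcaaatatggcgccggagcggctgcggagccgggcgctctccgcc
PCNA: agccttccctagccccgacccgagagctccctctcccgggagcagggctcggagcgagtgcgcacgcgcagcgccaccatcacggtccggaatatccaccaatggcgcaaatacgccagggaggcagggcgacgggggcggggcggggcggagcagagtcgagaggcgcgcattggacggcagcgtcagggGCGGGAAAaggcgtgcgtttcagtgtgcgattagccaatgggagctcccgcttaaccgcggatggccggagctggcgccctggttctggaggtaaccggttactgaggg

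In control cells at 48 h POLD2 had the highest level of the 10 genes, at 66.7 ± 2.55 eRPKM (SD, n = 3). PCNA (47.2 ± 1.95) and PRIM1 (43.3 ± 4.01) came next and their libraries overlapped. They were followed by POLD1 (38.9 ± 1.63), by POLE2 (27.1 ± 1.27) and PRIM2 (26.2 ± 1.67), which overlapped, and by POLD3 (23.7 ± 0.679). POLE (18.6 ± 1.54), POLA2 (16.8 ± 1.81) and POLA1 (16.1 ± 0.52) had the lowest levels, each overlapping the next. The summed level of the 10 genes was 315 to 336 eRPKM in siCtrl, 349 to 372 in siCtrl OHT, 209 to 223 in siRAD21 and 327 in both siRAD21 OHT libraries at 48 h, and it was 319 to 358 over the 8 libraries at 24 h.

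On GRCh37, the build of the files, the genes are spread over 8 chromosomes. POLA1 lies at chrX:24711990-25015103 (plus strand), POLA2 at chr11:65029384-65073430 (plus), PRIM1 at chr12:57124222-57146158 (minus) and PRIM2 at chr6:57179603-57513376 (plus). POLD1 lies at chr19:50887461-50921275 (plus), POLD2 at chr7:44154230-44163957 (minus) and POLD3 at chr11:74204896-74380162 (plus). POLE lies at chr12:133200339-133263962 (minus), POLE2 at chr14:50110273-50155140 (minus) and PCNA at chr20:5095599-5107272 (minus). Reads were counted over exons.

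**Figure D1:**
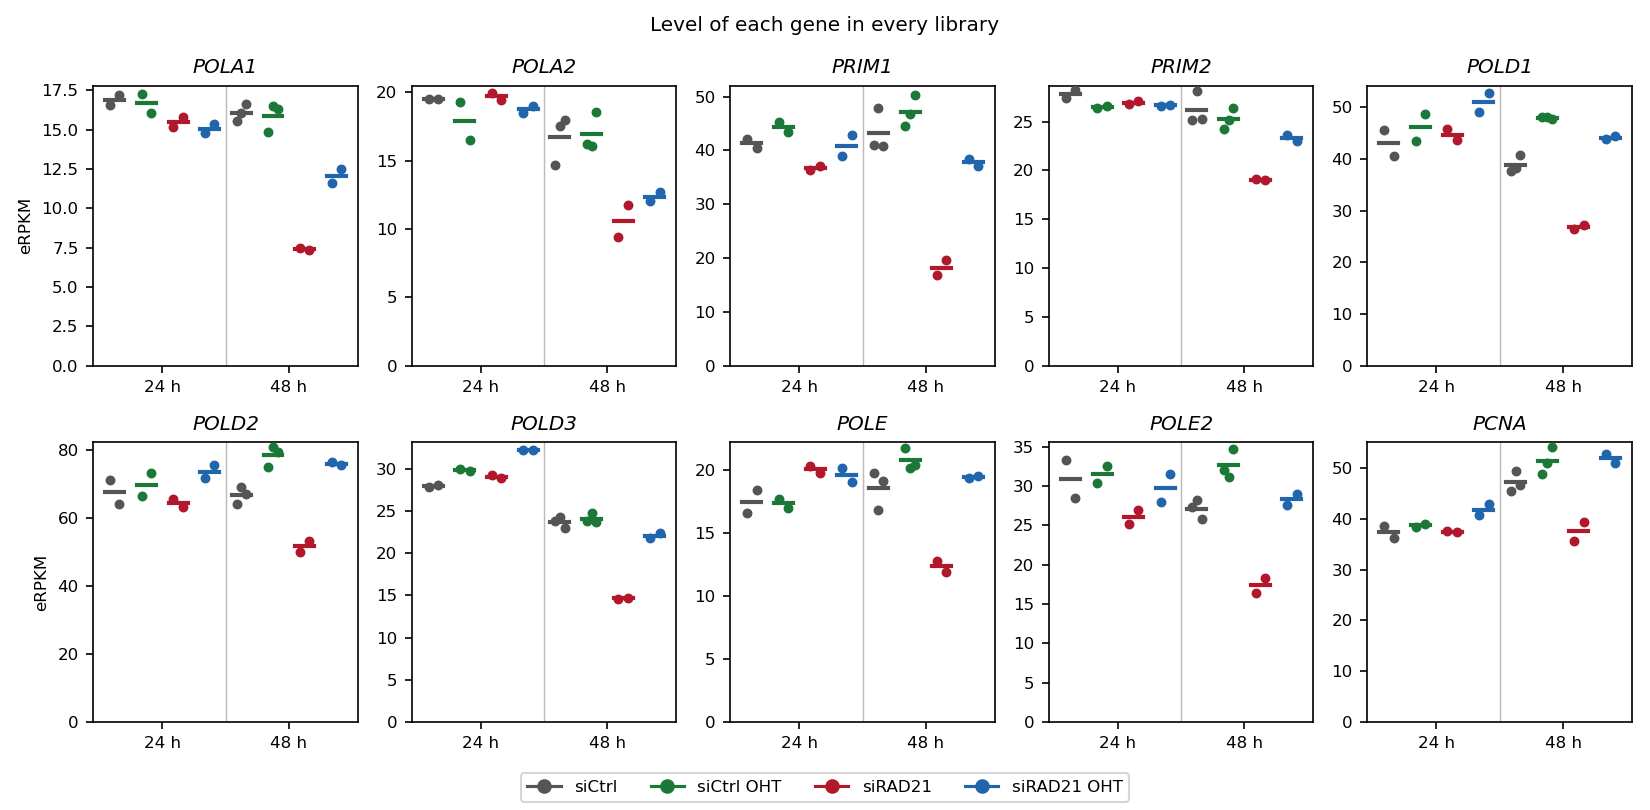
Level of each of the 10 genes in eRPKM (linear axis from 0, a scale of its own for each gene) in every library, with 24 h to the left of the grey line and 48 h to its right. Points are libraries and bars group means; in each panel the 2 red points at 48 h (siRAD21) lie below the 3 grey points (siCtrl), as for PRIM1 at 16.8 and 19.6 against 40.8 to 47.9.

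All 10 genes were lower in siRAD21 than in siCtrl cells at 48 h, and 7 of them passed the test. A call here needs an adjusted p under 0.05 from limma (Benjamini-Hochberg over all genes tested) together with a difference of over 0.5 on the log2 scale, up or down. The 7 called lower are POLA1, POLA2, PRIM1, POLD1, POLD3, POLE and POLE2, beside 11.2% of all genes tested. By the adjusted p alone all 10 passed, beside 30.5% of all genes. For each of the 10 every siRAD21 library lay below every siCtrl library, which held for 36.7% of all genes. The median log2 fold change was -0.60 over the 10 genes and -0.01 over all genes. In bulk RNA, fewer cells in S phase and less of a transcript per cell cannot be told apart.

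The catalytic subunits that begin a new strand fell most. PRIM1, which makes the RNA primer, was at 41.1, 47.9 and 40.8 eRPKM in the siCtrl libraries and at 16.8 and 19.6 in the siRAD21 libraries. Its highest siRAD21 library had less than the lowest siCtrl library, and its level fell to 0.427 of control (log2 fold change -1.23, SE 0.08, adjusted p = 1.37e-08, limma). POLA1, which extends the primer with DNA, was at 15.6, 16.0 and 16.6 in siCtrl and at 7.46 and 7.32 in siRAD21 cells. The groups were far apart compared with their spread, and POLA1 fell to 0.477 of control (log2 fold change -1.07, SE 0.06, adjusted p = 2.74e-09, limma).

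Their partners in the complex differed less. POLA2, which tethers POLA1 to the other subunits, was at 14.7, 17.6 and 18.003 in siCtrl and at 9.46 and 11.8 in siRAD21 cells. Its log2 fold change was -0.64 (SE 0.10, adjusted p = 9.26e-05, limma), with the widest standard error of the set. Without siRAD21 replicate 1 it was -0.49 and no longer called. PRIM2, the large subunit of primase with an iron-sulfur cluster, was at 25.2, 28.1 and 25.2 in siCtrl and at 19.1 and 19.0 in siRAD21 cells. These groups did not overlap either, but the log2 fold change of -0.45 (SE 0.05, adjusted p = 3.15e-06, limma) stayed short of the fold threshold.

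Each catalytic subunit was also set against its partner. In each library the level of PRIM1 was divided by that of PRIM2. This ratio was 1.62 to 1.70 in siCtrl and 0.879 to 1.03 in siRAD21 cells at 48 h, and it was 1.61 to 1.63 in siRAD21 OHT cells. The ratio of POLA1 to POLA2 was 0.912 to 1.06 in siCtrl and 0.622 to 0.789 in siRAD21 cells, and 0.965 to 0.982 in siRAD21 OHT cells. For both ratios the siCtrl and siRAD21 libraries did not overlap, and the exact two-sided permutation test over 5 libraries gave p = 0.1, the smallest it allows (adjusted p = 0.2 over 6 ratios compared). Nor did they overlap for POLA1 to PCNA (exact permutation p = 0.1) or for POLD3 to POLD1 and POLD1 to POLD2 (p = 0.2 each). The ratio of POLD1 to POLD2 was 0.554 to 0.609 in siCtrl and 0.511 to 0.532 in siRAD21 cells. The share of other gene pairs without overlap was not computed. On GRCh37, 640 exon bases of PRIM2 are shared with the annotated pseudogene PRIM2BP and 836 with a noncoding RNA on the same strand, and PRIM1 shares 362 bases with a protein-coding gene annotated without a symbol and 139 with NACA, both on its own strand, and 132 with HSD17B6 on the opposite one. POLA2 shares 2012 and POLD1 426 exon bases with longer protein-coding transcripts annotated on the same strand, and POLD3 shares 123 with LIPT2-AS1. POLA2 also shares 543 with a noncoding RNA on the opposite strand. Strand would not separate genes that overlap on the same strand, and for the opposite ones the libraries do not mark it. Reads on these bases thus cannot be assigned to 1 gene by strand. The overlaps are over GENCODE exons, 12006 bases for POLA2 against a recovered exon length of 3615. How many shared bases lie in the exons counted was not tested.

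In polymerase delta POLD3, a subunit that links it to PCNA, fell most. It was at 23.8, 24.4 and 23.0 in siCtrl and at 14.6 and 14.7 in siRAD21 cells (log2 fold change -0.68, SE 0.04, adjusted p = 2.47e-09, limma). This was the tightest estimate of the set. POLD1, the catalytic subunit with the proofreading exonuclease, was at 37.8, 38.3 and 40.8 in siCtrl and at 26.5 and 27.2 in siRAD21 cells. The log2 fold change of -0.53 (SE 0.06, adjusted p = 3.18e-06, limma) lay just past the threshold, and it was -0.49 without siCtrl replicate 3 and -0.45 after quantile normalization. POLD2, the B subunit, was at 64.0, 69.1 and 67.0 in siCtrl and at 49.9 and 53.3 in siRAD21 cells (log2 fold change -0.37, SE 0.06, adjusted p = 7.76e-05, limma). This is short of the fold threshold. Duplicate reads were removed by the authors, which compresses differences in genes with many reads per base. POLD2 used 27.2 to 41.95% of the start positions on its exons, more than the other members, and with the removal undone its log2 fold change was -0.43.

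Both subunits of polymerase epsilon were called lower. POLE, the catalytic subunit, was at 19.8, 16.8 and 19.1 in siCtrl and at 12.8 and 11.9 in siRAD21 cells (log2 fold change -0.57, SE 0.07, adjusted p = 5.87e-06, limma). POLE2, its B subunit, was at 27.3, 28.2 and 25.7 in siCtrl and at 16.3 and 18.3 in siRAD21 cells (log2 fold change -0.63, SE 0.08, adjusted p = 8.67e-06, limma). The ratio of POLE2 to POLE overlapped between the groups, at 1.35 to 1.68 in siCtrl and 1.28 to 1.54 in siRAD21 cells (exact permutation p = 0.7).

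PCNA, the clamp, had the smallest difference of the set. It was at 45.5, 49.3 and 46.7 eRPKM in siCtrl and at 35.7 and 39.4 in siRAD21 cells at 48 h (log2 fold change -0.33, SE 0.05, adjusted p = 1.34e-04, limma), short of the fold threshold. PCNA also stood apart over time. In siCtrl cells it was at 38.5 and 36.3 eRPKM at 24 h, below these 48 h values (log2 fold change 0.33, SE 0.05, adjusted p = 2.51e-04, limma), while in siRAD21 cells it was at 37.6 and 37.3 at 24 h. The siRAD21 libraries at 48 h thus lay on both sides of the 24 h values. In siCtrl cells between 24 and 48 h none of the 10 genes was called with limma, beside 12.4% of all genes. Before adjustment 5 of the 10 and 7861 of all 14993 genes had a limma p below 0.05. POLD3 was the other member with an adjusted p below 0.05, with 27.8 and 28.1 at 24 h, above its 48 h values (log2 fold change -0.23, SE 0.04). Of all 14993 genes 6774 passed by the adjusted p alone.

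The same comparison at 24 h asks whether the differences were there early. None of the 10 was called between siRAD21 and siCtrl with limma, beside 8.43% of all genes in either direction. An unadjusted limma p below 0.05 was found for 2 of the 10 and for 5535 of all 14993 genes. Log2 fold changes ran from -0.24 (POLE2, 25.1 and 26.9 eRPKM against 33.3 and 28.5, adjusted p = 0.0507, limma) to 0.19 (POLE, 20.3 and 19.8 against 16.5 and 18.4, adjusted p = 0.0665, limma), with a median of -0.02. POLA1 was at 15.1 and 15.8 in siRAD21 and at 16.6 and 17.2 in siCtrl cells, a difference of -0.12 (95% confidence interval -0.26 to 0.01). RAD21 was by then at 0.265 of its control level.

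The effect of siRAD21 at 48 h was compared with that at 24 h directly, as a difference of the log2 fold changes. It was negative for all 10 genes and called for 6, POLA1, POLA2, PRIM1, POLD1, POLD3 and POLE, beside 6.86% of all genes called lower. The differences were largest for PRIM1 (-1.06, SE 0.11, adjusted p = 3.12e-05, limma) and POLA1 (-0.94, SE 0.08, adjusted p = 5.21e-06, limma), followed by POLE (-0.76, SE 0.10) and POLD3 (-0.73, SE 0.05). Without siCtrl 24 h replicate 2 POLD1 was at -0.50 with 5 genes called, and without siCtrl 24 h replicate 1 POLE2 was called as well, with 7 in all.

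MycER activation was then examined in siCtrl cells. At 24 h none was called between siCtrl OHT and siCtrl with limma, beside 8.78% of all genes. Unadjusted, 1 of the 10 and 5552 of all 14993 genes had a limma p below 0.05. At 48 h none was called either, beside 17.9% of all genes in either direction. Here an unadjusted limma p below 0.05 was found for 5 of the 10 and 8748 of all genes. The 5 that passed by the adjusted p alone were all higher, POLD1, POLD2, POLE, POLE2 and PCNA, beside 26.1% of all genes. POLD1 had the largest difference, with 37.8 to 40.8 eRPKM in siCtrl and 47.8 to 48.1 in siCtrl OHT libraries (log2 fold change 0.30, SE 0.05, adjusted p = 2.37e-04, limma). POLE2 was at 32.1, 31.2 and 34.6 with OHT (log2 fold change 0.26, SE 0.07) and POLD2 at 75.1, 80.7 and 79.4 (0.23, SE 0.05).

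The 4 subunits of the priming complex and POLD3 did not pass by the adjusted p. POLA1 was at 14.8, 16.5 and 16.3 eRPKM with OHT, and its difference of -0.02 had a 95% confidence interval of -0.13 to 0.09. The intervals were -0.17 to 0.21 for POLA2, -0.14 to 0.05 for PRIM2, -0.02 to 0.27 for PRIM1 and -0.05 to 0.09 for POLD3. The direction of POLA1, POLA2, PRIM2 and POLD3 in this comparison turned when 1 library was left out.

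In RAD21-depleted cells most of the set was higher with OHT. At 48 h 7 of the 10 genes were called higher in siRAD21 OHT than in siRAD21 cells, POLA1, PRIM1, POLD1, POLD2, POLD3, POLE and POLE2, beside 12.4% of all genes called higher. This comparison shares the siRAD21 libraries with that of siRAD21 against siCtrl. The median log2 fold change was 0.61 over the 10 genes and -0.02 over all genes. PRIM1 rose most, from 16.8 and 19.6 eRPKM to 38.5 and 37.1, 2.05-fold (log2 fold change 1.04, SE 0.08, adjusted p = 1.96e-07, limma). POLD1 rose from 26.5 and 27.2 to 43.8 and 44.4 (0.70, SE 0.06), POLE2 from 16.3 and 18.3 to 27.6 and 29.0 (0.69, SE 0.08) and POLA1 from 7.46 and 7.32 to 11.6 and 12.5 (0.67, SE 0.06).

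The 3 genes not called were POLA2, PRIM2 and PCNA. POLA2 was at 12.0 and 12.7 with OHT, just above the 9.46 and 11.8 without it (log2 fold change 0.22, adjusted p = 0.1, limma, 95% confidence interval -0.02 to 0.46). PRIM2 was at 19.1 and 19.0 without and at 23.7 and 23.0 with OHT (0.29, adjusted p = 4.03e-04, limma), short of the fold threshold. PCNA was at 35.7 and 39.4 without and at 52.7 and 51.0 with OHT (0.46, adjusted p = 1.28e-05, limma). PCNA was past the threshold without siRAD21 replicate 2, at 0.53, and with the removal of duplicates undone, at 0.51. POLD2, called at 0.55, was at 0.36 after quantile normalization.

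At 24 h none of the 10 was called between siRAD21 OHT and siRAD21 cells with limma, beside 11.9% of all genes in either direction. The unadjusted limma p was below 0.05 for 5 of the 10 and for 6676 of all 14993 genes. By the adjusted p alone POLD1, POLD2 and POLD3 were higher, by 0.19, 0.19 and 0.15 on the log2 scale, beside 16.9% of all genes. POLD3 was at 32.3 and 32.3 eRPKM with OHT and at 29.3 and 28.9 without it, with little spread.

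**Figure D2:**
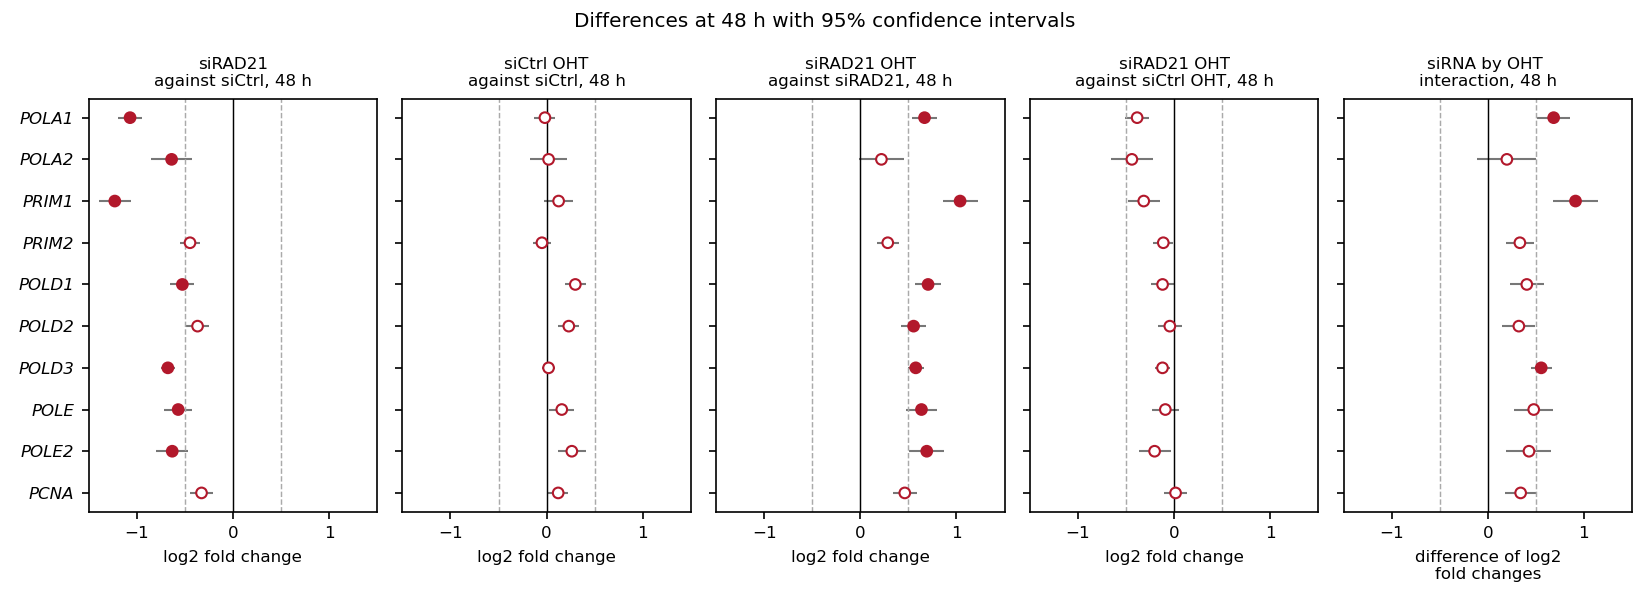
Log2 fold changes (and, on the right, differences of log2 fold changes) of the 10 genes at 48 h, with 95% confidence intervals from limma; filled points are called and dashed lines mark the fold threshold of 0.5. Points are left of 0 for all 10 genes with siRAD21 and right of 0 for all 10 with OHT in siRAD21 cells.

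Whether OHT acted differently in the 2 siRNA backgrounds was tested as an interaction, the log2 fold change with OHT in siRAD21 cells minus that in siCtrl cells. At 48 h it was above 0 for all 10 genes and called for 3, POLA1, PRIM1 and POLD3, beside 3.33% of all genes called higher. It was 0.91 for PRIM1 (SE 0.11, adjusted p = 1.17e-04, limma), 0.69 for POLA1 (SE 0.08, adjusted p = 1.00e-04, limma) and 0.56 for POLD3 (SE 0.05, adjusted p = 1.44e-05, limma). By the adjusted p alone 9 of the 10 passed, all but POLA2 (0.20, adjusted p = 0.366, limma), beside 10.0% of all genes, and 7 with the pair averaged, without POLD2 and POLE2. POLE, at 0.48, was called without siCtrl replicate 2, without siCtrl OHT replicate 1, without siRAD21 replicate 1 and after quantile normalization, and POLE2, at 0.43, without siRAD21 replicate 2 (all at 48 h). At 24 h none was called with limma, nor was any gene of the table (0.00%). At an unadjusted p below 0.05 it was 0 of the 10 genes and 906 of all.

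With OHT present, the difference between siRAD21 and siCtrl cells at 48 h was below the threshold for each gene. None of the 10 was called with limma, beside 16.2% of all genes in either direction, and the median log2 fold change was -0.12. Before adjustment 6 of the 10 and 7745 of all 14993 genes had a limma p below 0.05. By the adjusted p alone 5 were lower, POLA1, POLA2, PRIM1, POLD3 and POLE2, beside 22.8% of all genes. With the siRAD21 OHT pair averaged 3 were, POLA1, POLA2 and PRIM1, and POLE2 (adjusted p = 0.0453, limma) went to 0.146. POLA2 (-0.44, SE 0.10, adjusted p = 0.00264, limma) and POLA1 (-0.38, SE 0.06, adjusted p = 8.00e-05, limma) had the largest differences, with 12.0 and 12.7 against 16.1 to 18.6 eRPKM for POLA2 and 11.6 and 12.5 against 14.8 to 16.5 for POLA1. PRIM1 followed at -0.32 (SE 0.08). For PCNA the difference was 0.02 (95% confidence interval -0.10 to 0.13), for POLD2 -0.04 (-0.17 to 0.08) and for POLE -0.09 (-0.23 to 0.05).

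**Figure D3:**
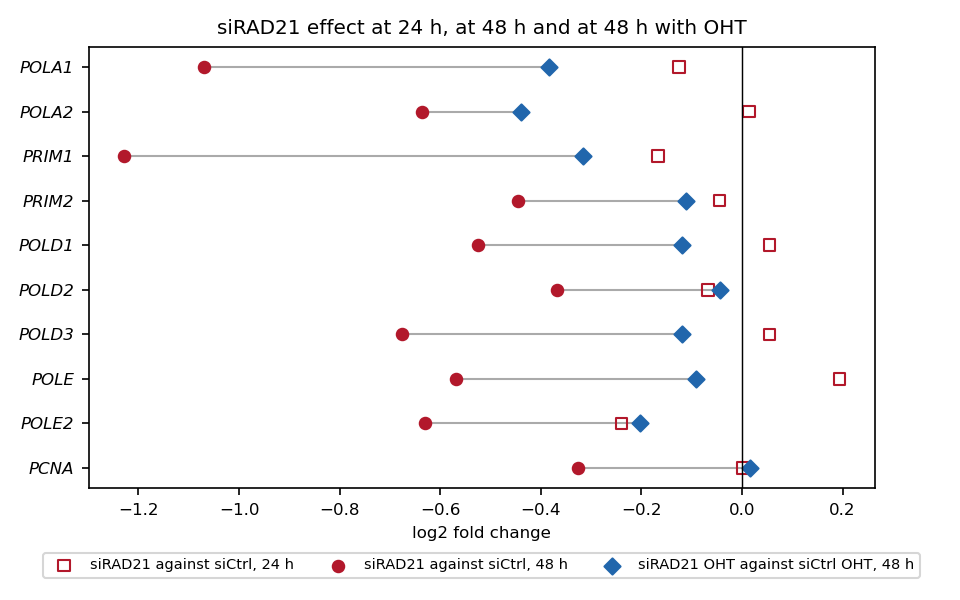
Log2 fold change of each gene with siRAD21 against siCtrl at 24 h (open squares), at 48 h (red circles) and with OHT in both arms at 48 h (blue diamonds). Every red circle lies left of its blue diamond, with PRIM1 at -1.23 and -0.32 and POLA2 at -0.64 and -0.44.

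Measured against siCtrl cells without OHT, siRAD21 OHT cells at 48 h had no called member. None of the 10 was called with limma, beside 28.0% of all genes in either direction. Unadjusted, 8 of the 10 and 9523 of all 14993 genes had a limma p below 0.05. By the adjusted p alone 5 were lower, the 4 subunits of the alpha-primase complex and POLD3, and 3 were higher, POLD1, POLD2 and PCNA, beside 59.7% of all genes in either direction. With the pair averaged only POLA1 and POLA2 passed, 2 of the 8, and PRIM1 (adjusted p = 0.0473, limma) went to 0.14. The priming genes lay at -0.42 (POLA2), -0.40 (POLA1), -0.19 (PRIM1) and -0.16 (PRIM2), and POLD3 at -0.10. POLD2 was at 0.19, POLD1 at 0.18 and PCNA at 0.14. Without siCtrl 48 h replicate 1 POLA2 was at -0.51 and called. These values share the siCtrl libraries with the comparison of siRAD21 and siCtrl cells.

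MYC transcript was at 49.9 to 54.6 eRPKM in siCtrl and at 56.4 to 57.5 in siRAD21 libraries at 48 h (log2 fold change 0.12, adjusted p = 0.109, limma), without separating the transgene's reads from those of the gene. At 24 h it was lower with siRAD21 (-0.25, adjusted p = 0.0146, limma), when none of the 10 genes was called. With OHT in siRAD21 cells at 48 h MYC fell by 0.72 on the log2 scale (adjusted p = 9.23e-07, limma), while 7 of the 10 genes rose. OHT activates the MycER protein, and this activity is not measured by the transcript level. The paper reports that RAD21 silencing lowered Myc in mRNA, by quantitative RT-PCR, and in protein. It reports no effect of the silencing on MycER protein. The part of MYC in the members' levels was not tested.

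Small subunits of polymerases delta and epsilon that are not among the 10 genes went separate ways. POLE3, a histone-fold subunit of polymerase epsilon, fell from 62.5 to 23.6 eRPKM with siRAD21 at 48 h (log2 fold change -1.39, SE 0.05, adjusted p = 1.58e-10, limma), more than any of the 10. POLE4, its histone-fold partner, was at 27.5 and 23.6 eRPKM (-0.21, SE 0.07, not called), and with OHT in siRAD21 cells it rose by 0.69. POLD4, the smallest subunit of polymerase delta, was higher with siRAD21 (0.45, SE 0.10, not called). It fell with OHT by 0.99 in siCtrl and by 0.82 in siRAD21 cells at 48 h (both called), where POLD1, POLD2 and POLD3 were at 0.30, 0.23 and 0.02 in siCtrl and were called higher in siRAD21 cells.

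The partners of the polymerases at the fork were lower with siRAD21 at 48 h, like the 10 genes. Of 35 such genes (clamp loader, RPA, MCM helicase, CDC45, GINS, flap and primer removal) 34 were tested, and 27 were called lower and 0 higher, beside 11.2% of all genes called lower and 12.6% called higher, with a median log2 fold change of -0.81. GINS1 (-1.34) and GINS2 (-1.26), subunits of the CMG helicase, had the lowest values, and GINS3 (-0.55) and RNASEH2B (-0.55), a subunit of the enzyme that removes RNA from DNA, the highest among those called. Of 14 genes of S phase entry and nucleotide supply 12 were called lower (median -0.65), from CCNE2, a cyclin of S phase entry, at -1.14 and CDC25A, a phosphatase that activates CDKs, at -0.90 to RRM1, the large subunit of ribonucleotide reductase, at -0.52 and DUT, the dUTPase, at -0.51. Of 12 G2/M genes 3 were called lower (median -0.42), beside the same 11.2% of all genes, the mitotic kinases and checkpoint genes AURKB (-0.77), BUB1B (-0.72) and CDK1 (-0.51). How far the share of cells in each phase moved with the 10 genes was not tested.

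DNA polymerases that work outside the replication fork were counted as well. Of 14 tested genes of repair, translesion and mitochondrial synthesis, 3 were called higher with siRAD21 at 48 h and 1 lower, counts near the 12.6% and 11.2% of all genes, with a median of 0.06. The catalytic subunit of polymerase zeta, REV3L, rose by 1.17 on the log2 scale, and the translesion polymerases POLI and POLH by 0.66 and 0.64. POLQ, of end joining, fell by 0.57.

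**Figure D4:**
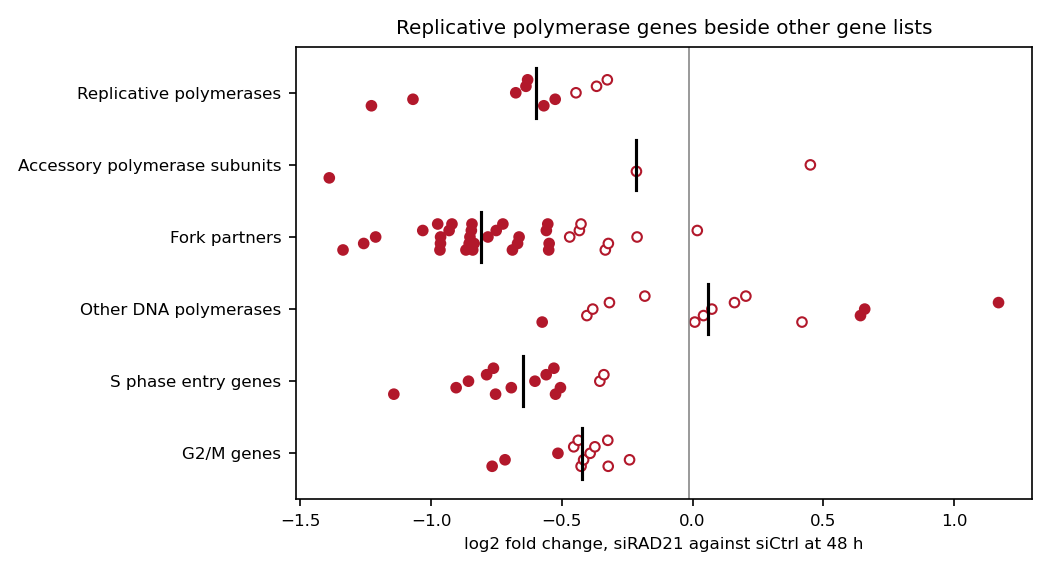
Log2 fold change with siRAD21 against siCtrl at 48 h of the 10 replicative polymerase genes and of the genes of 5 other lists; each point is a gene, filled where called, black bars are list medians and the grey line is the median of all genes (-0.01). The medians are -0.60 for the 10 genes, -0.81 for the fork partners and 0.06 for the other DNA polymerases.

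With OHT in siRAD21 cells at 48 h 21 of the 34 fork partners, 7 of the 14 S phase entry genes, 1 of the 12 G2/M genes and 1 of the 14 other polymerases were called higher, beside 12.4% of all genes. The last 2 counts are at or below that share. In siCtrl cells with OHT at 48 h 1 fork partner was called, TIPIN, of the fork protection complex (0.65), and 1 other polymerase gene, POLG2, of the mitochondrial polymerase (0.86), while no S phase entry or G2/M gene was called with limma, beside 17.9% of all genes called in either direction.

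Across the 8 group means, 9 of the 10 genes followed the mean of the set closely. Pearson's r with that mean, of which each gene is a part, was 0.83 for POLA2 and 0.86 to 0.98 for the other 8, with the highest value for PRIM1, and 0.30 for PCNA. PRIM1 had the widest range of group means, 1.35 on the log2 scale, and PCNA the narrowest, 0.47. The 5 genes outside the set with the most similar profile were MCM2, of the helicase (r = 0.997), ECHS1, a mitochondrial enzyme of fatty acid oxidation (0.993), CHAF1A, of the chromatin assembly factor at the fork (0.991), LRR1, an adaptor of a ubiquitin ligase (0.991), and RFC2, of the clamp loader (0.990). These are descriptions over 8 points that share libraries. MCM2 was at 61.1, 33.9 and 59.1 eRPKM in siCtrl, siRAD21 and siRAD21 OHT cells at 48 h.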

How the data were processed

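RNA-seq of 18 libraries of U2OS-MycER cells was analysed from the table of eRPKM values for 23399 genes. Ribosomal RNA was depleted and libraries were made with a kit that does not mark strand. The authors trimmed the reads, aligned them to hg19 with TopHat2 (2.0.8), removed PCR duplicates and deposited eRPKM, an RPKM over exons; the submitters' notes also name featureCounts (1.4.5). The authors called differential expression with DESeq2 at the thresholds used here.

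Here log2(eRPKM + 0.5) was fitted with limma 3.58.1 in R 4.3.3, with a mean for each of the 8 groups, all 18 libraries and a trend of the variance on expression. Both siRAD21 OHT 48 h libraries entered it as separate samples, and the fit with their mean as 1 sample is an alternative. Genes with a mean of at least 1 eRPKM were tested (14993) and p-values were adjusted by Benjamini-Hochberg in each comparison. A call needs an adjusted p under 0.05 together with a difference over 0.5 on the log2 scale. Fold changes are on the log2(eRPKM + 0.5) scale. Replicates were biological per the study's methods, with no culture named in the labels.

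Depth and whole reads were recovered from the values, within 0.01 of a whole number for 21260 genes, and served for depth, for voom and for undoing the removal of duplicates. That last alternative was chosen after seeing the data. It takes at most 1 read per start position and strand to have been kept. Whether the replicate numbers pair libraries was not settled. The residuals of same-numbered siCtrl and siCtrl OHT libraries at 48 h had r of 0.258, 0.130 and 0.157. For other pairs of groups r ran from -0.169 to 0.168, and no r was computed between differently numbered libraries. The other groups share only 2 numbers. Positions and overlaps came from GENCODE on GRCh37, promoters from RefSeq. Figures were drawn with matplotlib 3.10.9, and tables read with pandas 2.3.3 and numpy 2.4.6 under Python 3.11.15. The fit was tested on simulated data.

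The members and the gene lists were chosen with earlier results of these data known. Named genes are the 10 members, RAD21, MYC, POLD4, POLE3 and POLE4, of each list the 2 called genes with the lowest and the 2 with the highest log2 fold change with siRAD21 and with OHT in siCtrl cells at 48 h, and the 5 tested genes whose group means correlated best with the mean of the members. The lists hold 79 symbols, of which 78 were matched in the table. TERT was below the filter. Ratios between members were compared with an exact permutation test added after seeing the data.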

Additional observations from a re-analysis of the deposited data

Results flagged for a closer look

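The effect of OHT differed between siRNA backgrounds at 48 h, by the interaction in limma, for POLA1 (0.69 on the log2 scale), PRIM1 (0.91) and POLD3 (0.56). In each case the rise was in siRAD21 cells. In siCtrl cells the log2 fold changes with OHT were -0.02, 0.13 and 0.02, with 95% confidence intervals that included 0.

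The effect of siRAD21 differed between 48 and 24 h, by the same kind of test, for PRIM1 (-1.06), POLA1 (-0.94), POLE (-0.76), POLD3 (-0.73), POLA2 (-0.65) and POLD1 (-0.58), in each case with the lower value at 48 h. No group had enough libraries for a test of single outlying libraries.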

How the results depend on the processing

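Each count of called members and each member's log2 fold change at 48 h was recomputed with pseudocounts of 1 and 0.1, other filters on low values, quantile normalization, centring on the median, a fit of the compared groups alone, a replicate block, robust empirical Bayes, no trend of the variance, the 2 siRAD21 OHT 48 h libraries averaged, voom on recovered reads, the removal of duplicates undone and each library left out. Of 1860 recomputed member values 1836 kept direction and call, 4 lost the call, 8 gained it and 12 turned direction. Leaving out a library outside the groups compared, such as any at 24 h, cannot change these log2 fold changes. Nor can fitting the compared groups alone, robust empirical Bayes or no trend of the variance, which move only the adjusted p. Many of the 1836 values thus had their direction fixed beforehand. With the replicate block the 7 members called lower with siRAD21 at 48 h and the 7 called higher with OHT in siRAD21 cells were again 7 and 7, the interaction had 3, and the block changed no call of a member.

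Without the fold threshold, the number of members called went from 0 to 5 for OHT in siCtrl cells at 48 h, from 0 to 3 for OHT in siRAD21 cells at 24 h, from 0 to 5 for siRAD21 OHT against siCtrl OHT, from 0 to 8 for siRAD21 OHT against siCtrl, from 3 to 9 for the interaction, from 6 to 10 for the siRAD21 effect at 48 minus 24 h and from 0 to 2 for siCtrl at 48 against 24 h. Of all 14993 genes, 3236 passed by the adjusted p alone for the siRAD21 effect at 48 minus 24 h. For siCtrl at 48 against 24 h 6774 did, in either direction. Leaving out single libraries, the count for siRAD21 OHT against siCtrl at 48 h was 0 to 1.

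Turned directions were all of values close to 0. With centring on the median POLA1 was at 0.0161 with OHT in siCtrl cells and PCNA at -0.00248 in siRAD21 OHT against siCtrl OHT cells. After quantile normalization POLD3 was at -0.0196 with OHT in siCtrl cells. With single libraries left out, the ranges with OHT in siCtrl cells were -0.04525 to 0.0295 for POLA1, -0.0687 to 0.07405 for POLA2, -0.08027 to 0.00278 for PRIM2 and -0.00113 to 0.0392 for POLD3, -0.0193 to 0.0543 for PCNA in siRAD21 OHT against siCtrl OHT cells and -0.000183 to 0.113 for POLE in siRAD21 OHT against siCtrl cells. With the siRAD21 OHT 48 h libraries averaged, the members' standard errors in comparisons with this group were 1.14 to 1.33 times as large. Against siCtrl OHT, against siCtrl and for the interaction fewer members then passed by the adjusted p alone, as given above. The causes of these changes were not tested. No scaling moved the median of all genes by over 0.1. Duplicate removal and 2 libraries in most groups limit the precision.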
